A study of Mus musculus with 2 samples.

Results

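The 10 genes described here encode the scaffold of the sarcomere at the Z-disc: Ttn and Neb, the giant filament proteins titin and nebulin; Actn2 and Actn3, the sarcomeric alpha-actinins; and Ldb3, Tcap, Myoz1, Myoz2, Csrp3 and Myot, which bind them. They were chosen by symbol, and all 10 were among the 26100 genes that the 2 libraries of the series share. Induced myogenic progenitor cells gave the iMPC library: mouse embryonic fibroblasts converted with MyoD together with what is labelled only as F/R/C, then grown in medium with F/R/C. The series describes these cells as a stable clone. Unconverted mouse embryonic fibroblasts in MEF media gave the MEF library, and both sources carried the Pax7-nGFP transgene on a C57BL6;DBA2 background. Both were profiled with the 10x Genomics 3′ droplet assay, in which each captured transcript carries a unique molecular identifier (UMI).

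In striated muscle the Z-disc is the plate that joins neighbouring sarcomeres. Alpha-actinin cross-links the ends of actin filaments there, titin runs from it to the M-band, and nebulin lies along the thin filament. During differentiation, myoblasts that express the transcription factor myogenin (Myog) leave the cell cycle, assemble these proteins into premyofibrils and then into mature myofibrils, and express muscle creatine kinase (Ckm).

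Each group held 1 library, so no test between them was possible. All intervals are exact at 95% and reflect counting error alone. Levels are UMIs per 1000000 UMIs (CPM) over the summed cells of a group. Each UMI stands for a captured 3′ end and the levels are not divided by transcript length, so levels of different genes are not ranked against each other. A gene is called higher when its level is at least 2-fold that of the other group and at least 10 CPM on the higher side.

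The iMPC library kept 9349 cells with more than 8035 UMIs, which is 10% of the 99th percentile of its top 10000 barcodes, and at most 20% mitochondrial UMIs (232728796 UMIs, median 20846 per cell), and the MEF library kept 6043 cells under the same mitochondrial limit (118069653 UMIs, median 18929). The 2 sets of kept cells shared 16 barcodes. The iMPC cells held Pax7 at 45.05 CPM, Myod1 at 159 and Myog at 570 CPM, against at most 0.0762 CPM of each in MEF, and the collagen gene Col1a1 had 2289 CPM in MEF against 79.1 in iMPC. Endothelial, immune, glial and epithelial markers summed to at most 3.2 CPM per list in either library. Of 2 neuron markers, Tubb3 stood at 55.2 CPM in iMPC and 25.3 in MEF, with 73.5 CPM in iMPC cells with 1 to 4 Myog UMIs and no Ckm UMI, and Rbfox3 had 1 UMI in iMPC and 0 in MEF.

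iMPC cells were ordered by their UMIs of Myog and Ckm. Myog-low cells held 1 to 4 Myog UMIs and no Ckm UMI (2251 cells, median 19341 UMIs). Myog-high cells held at least 5 Myog UMIs and at most 1 Ckm UMI (1724 cells, median 23857.5 UMIs). Ckm-low cells held 2 to 4 Ckm UMIs (498 cells, median 29408.5 UMIs) and Ckm-high cells at least 5 (1037 cells, median 42148 UMIs). A further 3238 cells had no UMI of either gene and are called Myog-negative, and 601 fell in no set. Pax7 stood at 74.7 CPM in Myog-negative, 75.0 in Myog-low, 21.8 in Myog-high, 11.03 in Ckm-low and 4.95 CPM in Ckm-high cells. The median mitochondrial share was 3.48% in Myog-negative, 3.37% in Myog-low, 3.90% in Myog-high, 4.86% in Ckm-low and 5.98% in Ckm-high cells. The share of cells marked as doublets was 1.27% in Myog-negative, 2.40% in Myog-low, 8.06% in Myog-high, 9.84% in Ckm-low and 8.78% in Ckm-high cells. Because depth differed between the groups, shares of cells are given after each cell was thinned to 5000 UMIs.

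All 10 genes were higher in iMPC than in MEF, where 14.8% of the 8605 genes compared were. Their median log2 ratio was 11.06, with 2 genes entered against a floor of 3 counts, and -0.17 over all genes compared. Ttn had 1262 CPM in iMPC against 0.0847 CPM in MEF, from 10 UMIs, which put its log2 ratio at 13.86 (12.98 to 14.92). The MEF level of most members rested on few UMIs: 26 for Neb, 12 for Tcap, 5 for Actn2, 2 for Csrp3 and 1 for Myoz2. Myoz1 and Myot had 0 UMIs in MEF, with an upper limit of 0.0312 CPM. Against the floor of 3 counts over the library, 0.0254 CPM, Myoz1 was 2185-fold and Myot 764-fold higher in iMPC. The lower limits of their log2 ratios were 10.79 and 9.28.

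Ldb3 and Actn3 had the most UMIs of the 10 in fibroblasts. Ldb3, a PDZ and LIM domain protein also known as ZASP or Cypher, had 388 UMIs in 332 MEF cells, or 3.29 CPM (2.97 to 3.63) against 91.5 CPM in iMPC, a log2 ratio of 4.80 (4.65 to 4.95). Actn3, the alpha-actinin of fast fibres, had 104 UMIs in 103 MEF cells, or 0.881 CPM (0.720 to 1.07) against 145 CPM in iMPC, a log2 ratio of 7.36 (7.08 to 7.65). MEF cells with an Ldb3 UMI held the smooth muscle actin gene Acta2 at 9637 CPM and the smooth muscle calponin gene Cnn1 at 428 CPM, and the other MEF cells held them at 5838 and 125 CPM. The cells with an Ldb3 UMI also had more UMIs in all, with a median of 24524 against 18612, and the part of depth in this difference was not tested. For Actn3 the same 2 genes stood at 6632 and 161 CPM in cells with its UMI and at 6098 and 146 CPM in cells without.

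In iMPC the genes were divided into an early pair, a middle group and a late group. The division rests on the level in Myog-high cells as a percent of that in Ckm-high cells. Titin, the product of Ttn (ENSMUSG00000051747, GRCm38 chromosome 2, 76703980 to 76982547, minus strand), is the molecular spring of the sarcomere. Ttn stood at 100.3 CPM in Myog-negative, 181 in Myog-low, 1545 in Myog-high, 2411 in Ckm-low and 3364 CPM in Ckm-high cells. Nebulin, which sets and stabilises the thin filament, is encoded by Neb on the same chromosome (ENSMUSG00000026950, 52136647 to 52378474, minus strand). Neb stood at 59.4 CPM in Myog-negative, 87.7 in Myog-low, 568 in Myog-high, 896 in Ckm-low and 1171 CPM in Ckm-high cells. Divided by unthinned counts, both had their steepest step between Myog-low and Myog-high cells. The same limits on counts thinned to 5000 UMIs select other cells, with 5193 Myog-negative cells in place of 3238. Between groups so defined, Ttn went from 197 CPM in Myog-negative to 1314 in Myog-low and 2076 CPM in Myog-high cells. Neb went from 93.3 to 491 and 770 CPM, so for both the steepest step lay between the first 2 of these groups.

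The alpha-actinins followed. Actn2 (ENSMUSG00000052374, chromosome 13, 12269426 to 12340760, minus strand) encodes the isoform found in all skeletal fibres and in heart. Actn2 stood at 10.6 CPM in Myog-negative, 11.7 in Myog-low, 167 in Myog-high, 370.0 in Ckm-low and 536 CPM in Ckm-high cells. Actn3 (ENSMUSG00000006457, chromosome 19, 4861216 to 4877909, minus strand) stood at 25.5, 34.3, 129, 234 and 412 CPM in the same 5 groups. Thus Actn3 had the higher starting level relative to its own final level, and Actn2 the steeper step into Myog-high cells, 14.3-fold against 3.76-fold. The 2 genes have similar coding sequences, and how reads common to both were counted is not given in the sources used here.

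Ldb3 (ENSMUSG00000021798, chromosome 14, 34526603 to 34588682, minus strand) stood at 7.31 CPM in Myog-negative, 7.81 in Myog-low, 79.9 in Myog-high, 183 in Ckm-low and 277 CPM in Ckm-high cells. Myoz2 (ENSMUSG00000028116, chromosome 3, 123006206 to 123035015, minus strand) encodes calsarcin-1, which tethers calcineurin to alpha-actinin in slow and cardiac muscle. Its levels were 7.55, 9.82, 126, 299 and 421 CPM in that order. Csrp3 (ENSMUSG00000030470, chromosome 7, 48830398 to 48848033, minus strand) encodes muscle LIM protein. Csrp3 stood at 9.71 CPM in Myog-negative, 11.8 in Myog-low, 171 in Myog-high, 373 in Ckm-low and 584 CPM in Ckm-high cells. For these 3 genes the Myog-negative and Myog-low levels lay close together when cells were divided by unthinned counts. With limits on thinned counts, which select other cells, the large step lay between Myog-negative and Myog-low cells so defined. It went from 12.7 to 93.2 CPM for Ldb3, 16.4 to 171 for Myoz2 and 23.1 to 227 CPM for Csrp3. The Myog-high levels were then 135, 192 and 256 CPM.

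The late group held the titin cap, myotilin and the fast calsarcin. Tcap (ENSMUSG00000007877, chromosome 11, 98383811 to 98384953, plus strand) encodes telethonin, which joins the ends of 2 titin molecules in the Z-disc. Tcap stood at 3.65 CPM in Myog-negative, 3.90 in Myog-low, 38.6 in Myog-high, 98.9 in Ckm-low and 169 CPM in Ckm-high cells. Myot (ENSMUSG00000024471, chromosome 18, 44334074 to 44355724, plus strand) encodes myotilin, a partner of alpha-actinin and filamin C. Myot stood at 1.11 CPM in Myog-negative, 1.08 in Myog-low, 11.9 in Myog-high, 32.0 in Ckm-low and 66.8 CPM in Ckm-high cells. Myoz1 (ENSMUSG00000068697, chromosome 14, 20649107 to 20656540, minus strand) encodes calsarcin-2, the calsarcin of fast fibres. Myoz1 stood at 4.03 CPM in Myog-negative, 3.98 in Myog-low, 21.1 in Myog-high, 77.6 in Ckm-low and 207 CPM in Ckm-high cells.

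**Figure D1:**
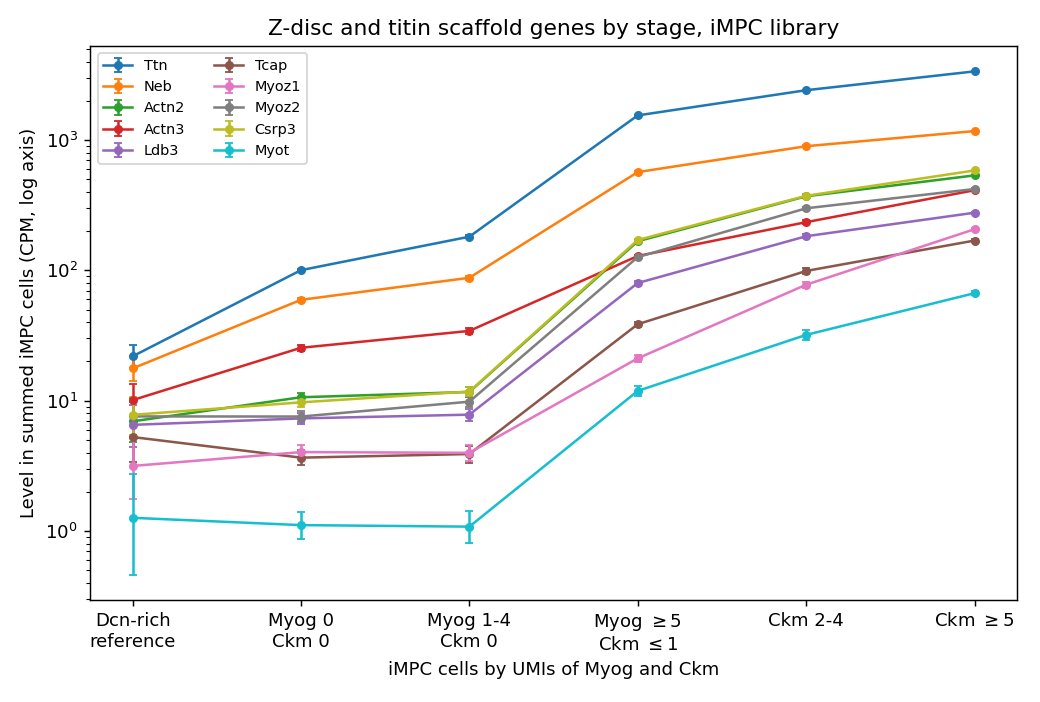
Level of each gene (CPM, log axis) over the summed iMPC cells of 6 groups, ordered by Myog and Ckm UMIs; points are levels and bars are exact 95% counting intervals. Ttn ran from 100.3 to 3364 CPM and Myot from 1.11 to 66.8 CPM between cells with neither Myog nor Ckm and cells with at least 5 Ckm UMIs, and all 10 genes were highest in the last group.

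The order was read from the level in Myog-high cells as a percent of the same gene's level in Ckm-high cells, a measure that sets each gene against itself. Neb had reached 48.4% (47.7 to 49.2) and Ttn 45.9% (45.5 to 46.3), and their intervals did not overlap. Actn3 at 31.3% (30.4 to 32.2), Actn2 at 31.2% (30.4 to 32.0), Myoz2 at 30.02% (29.2 to 30.9), Csrp3 at 29.3% (28.6 to 30.02) and Ldb3 at 28.9% (27.8 to 29.9) followed, and each neighbour in that run lay within the counting error of the next. Tcap at 22.8% (21.6 to 24.0), Myot at 17.8% (16.2 to 19.5) and Myoz1 at 10.2% (9.56 to 10.9) came last, each apart from its neighbours. Myog itself, one of the 2 genes that defined the groups, stood at 143% of its Ckm-high level. In Ckm-low cells the same measure was 76.5% for Neb, 71.7% for Ttn, 71.1% for Myoz2, 69.1% for Actn2 and 66.0% for Ldb3. It was 63.9% for Csrp3, 58.4% for Tcap, 56.9% for Actn3, 47.9% for Myot and 37.5% for Myoz1. In Myog-low cells the same measure put Actn3 first, at 8.33% (7.91 to 8.76). Neb followed at 7.49% (7.25 to 7.73) and Ttn at 5.39% (5.27 to 5.51). In Myog-negative cells the values were 6.18% for Actn3, 5.07% for Neb and 2.98% for Ttn. Over all settings tried, each of which used Myog-high or Ckm-low cells, Neb and Ttn held ranks 1 and 2, Myoz1 held rank 10, and Myot rank 8 or 9. Tcap held ranks from 7 to 9. Actn3 was the least fixed, with ranks from 3 to 8. In Ckm-low cells the intervals of Tcap (55.4 to 61.6) and Actn3 (55.0 to 58.9) overlapped.

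**Figure D2:**
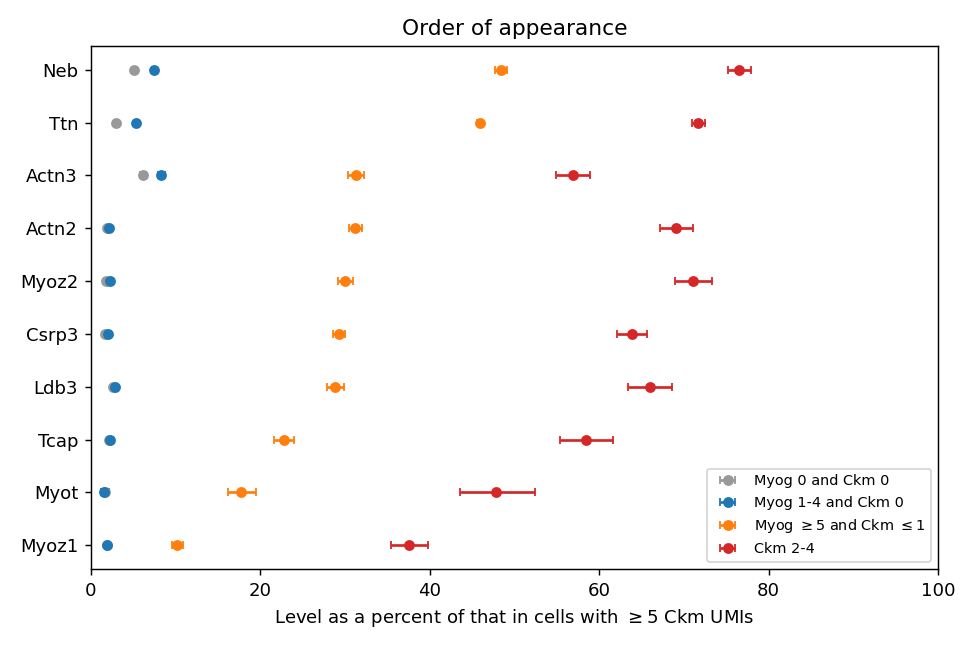
Level of each gene in 4 groups of iMPC cells as a percent of its level in cells with at least 5 Ckm UMIs, with exact 95% counting intervals as bars. In the Myog-high cells Neb (48.4%) and Ttn (45.9%) stood farthest to the right and Myoz1 (10.2%) farthest to the left, with 5 genes close together near 30%.

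Upstream sequence is shown for Ttn of the early pair and for Actn2, Ldb3, Myoz2 and Csrp3 of the middle group. None was matched for Neb, Actn3 or any gene of the late group, so the late genes are not compared here. RefSeq promoters on GRCm38.p6 were matched for 5 of the 10 genes, and the 250 bases before the first listed start site are printed 5′ to 3′ in the direction of transcription, all from the minus strand. Capitals mark matches, on either strand, to the E-box CANNTG bound by MyoD and myogenin, and to the MEF2 and CArG motifs bound by MEF2 and serum response factor. The regions are chr2:76982548-76982797 for Ttn, chr13:12340733-12340982 for Actn2, chr14:34588682-34588931 for Ldb3, chr3:123034988-123035237 for Myoz2 and chr7:48848052-48848301 for Csrp3.
Ttn: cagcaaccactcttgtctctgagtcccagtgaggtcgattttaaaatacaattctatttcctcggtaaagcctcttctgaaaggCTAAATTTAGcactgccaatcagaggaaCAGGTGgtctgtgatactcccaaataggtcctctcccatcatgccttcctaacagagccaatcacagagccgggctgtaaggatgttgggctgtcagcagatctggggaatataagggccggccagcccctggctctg
Actn2: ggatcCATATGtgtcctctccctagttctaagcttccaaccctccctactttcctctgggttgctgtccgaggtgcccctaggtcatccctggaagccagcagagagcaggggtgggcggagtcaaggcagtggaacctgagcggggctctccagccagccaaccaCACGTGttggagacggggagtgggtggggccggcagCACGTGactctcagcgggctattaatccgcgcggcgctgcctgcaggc
Ldb3: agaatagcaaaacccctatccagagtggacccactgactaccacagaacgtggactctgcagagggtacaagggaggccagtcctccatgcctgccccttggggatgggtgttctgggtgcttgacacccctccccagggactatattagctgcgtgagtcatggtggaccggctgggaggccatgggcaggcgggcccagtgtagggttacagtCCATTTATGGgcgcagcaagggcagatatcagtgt
Myoz2: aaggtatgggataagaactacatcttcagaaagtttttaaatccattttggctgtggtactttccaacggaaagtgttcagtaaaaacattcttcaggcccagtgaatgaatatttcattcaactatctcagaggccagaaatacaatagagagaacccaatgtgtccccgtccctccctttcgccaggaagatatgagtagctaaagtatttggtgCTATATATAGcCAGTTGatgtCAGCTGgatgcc
Csrp3: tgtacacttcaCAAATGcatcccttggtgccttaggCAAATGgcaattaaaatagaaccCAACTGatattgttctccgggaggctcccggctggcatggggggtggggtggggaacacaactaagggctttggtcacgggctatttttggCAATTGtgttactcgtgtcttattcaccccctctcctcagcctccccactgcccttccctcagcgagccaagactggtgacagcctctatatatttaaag

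The window before Ttn, from the early pair, held 1 E-box and 1 MEF2 match that began 166 bases before the start site. The middle genes differed among themselves. Actn2 had 3 E-boxes, Csrp3 had 4, and Ldb3 had no E-box but 1 CArG match 35 bases before its start. Myoz2 had 2 E-boxes, 1 of them of the form CAGCTG, and a MEF2 match 33 bases before the start. Among 32851 RefSeq promoter windows of the same length, 66.2% held an E-box, 13.0% the CAGCTG form, 2.92% a MEF2 match and 1.47% a CArG match. An E-box is therefore common in such windows, and a match is a description of the letters and not a shown binding site.

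No member was 2-fold higher or lower in Myog-low than in Myog-negative cells, where 0.0131% of 7640 genes were higher, and 5 of the 10 reached 10 CPM in either group. Ttn was 1.81-fold, Neb 1.48-fold, Actn3 1.35-fold, Myoz2 1.30-fold and Csrp3 1.21-fold higher there, with intervals that excluded equal levels. With raised stage limits the log2 ratio of Ttn was 1.14, past 2-fold. With free RNA subtracted, Csrp3 (1.43) and Myoz2 (1.41) passed 2-fold, at Myog-low levels of 4.58 and 4.65 CPM. The part of free RNA in the Myog UMIs that divide Myog-low from Myog-negative cells was not tested. Between Myog-low and Myog-high cells all 10 members were higher, where 6.42% of 7913 genes were. The ratios ran from 3.76-fold for Actn3, 5.31-fold for Myoz1 and 6.47-fold for Neb to 12.9-fold for Myoz2, 14.3-fold for Actn2 and 14.6-fold for Csrp3. The count depended on the depth at which cells were divided. With limits on thinned counts, which gave 1636 Myog-low and 1565 Myog-high cells, 0 of the 10 were 2-fold higher at this step. Of the 10, 4 were then lower in Myog-high cells: Actn3 at 147 against 169 CPM, Tcap at 44.2 against 67.4, Myoz1 at 34.1 against 51.1 and Myot at 17.4 against 20.7 CPM. The log2 ratios of Myog-low over Myog-negative cells were then 2.14 for Actn3 to 3.38 for Myoz2. At another depth the same limits select other cells, so the step at which members are called depends on the depth at which Myog is counted.

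From Myog-high to Ckm-low cells 7 of the 10 members were higher, where 2.85% of 7231 genes were. The 3 that stayed under 2-fold were Ttn at 1.56-fold, Neb at 1.58-fold and Actn3 at 1.82-fold. Myoz1, with 3.67-fold, had the highest ratio of the 10, followed by Myot with 2.69-fold and Tcap with 2.56-fold. At a threshold of 3-fold only Myoz1 remained called. Dcn, a fibroblast gene, stood at 9.20 CPM in Myog-high and 23.3 CPM in Ckm-low cells, and its part in this step was not tested.

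The last step, from Ckm-low to Ckm-high cells, left 2 of the 10 members higher, Myoz1 at 2.66-fold and Myot at 2.09-fold, where 0.649% of 6778 genes were. The other 8 lay between 1.31-fold for Neb and 1.76-fold for Actn3. With at most 10% mitochondrial UMIs, or with higher limits for the stages, 1 of the 10 was called. Across the whole range, Ckm-high against Myog-low, all 10 were higher, where 11.7% of 8104 genes were. The ratios went from 12.0-fold for Actn3, 13.4-fold for Neb and 18.6-fold for Ttn to 61.9-fold for Myot. The members' median log2 ratio was 5.43, against -0.46 over all genes compared.

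Finer bins of Myog and Ckm followed each gene within these groups. Among cells with no Ckm UMI, Ttn went from 139 CPM at 1 Myog UMI to 261 at 2 to 4, 628 at 5 to 9, 1147 at 10 to 19, 1470 at 20 to 49 and 1596 CPM at 50 or more. Neb followed with 73.3, 115, 231, 432, 546 and 608 CPM in the same bins. Both thus went on increasing with Myog while Ckm was still at 0. Myoz1 stood at 6.97 CPM at 5 to 9 Myog UMIs, 24.0 at 10 to 19, 15.0 at 20 to 49 and 14.9 CPM at 50 or more, so its level was no higher in the cells richest in Myog. Tcap behaved likewise, with 37.9, 36.6 and 27.4 CPM in the last 3 of those bins, and Actn3 with 117, 114 and 113 CPM.

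Beyond the threshold of 5 Ckm UMIs the genes separated again. From cells with 5 to 9 Ckm UMIs (379 cells) to cells with at least 50 (68 cells), Myoz1 went from 94.5 to 534 CPM, a ratio of 5.66 (5.29 to 6.05). Myot, Actn3 and Tcap had ratios of 2.65 (2.36 to 2.97), 2.38 (2.27 to 2.49) and 2.33 (2.16 to 2.51). The early pair differed less over these bins, with 1.31 for Ttn and 1.21 for Neb, and Myoz2, Actn2, Ldb3 and Csrp3 lay between 1.30 and 1.65. Over the same bins Myog went from 1107 to 558 CPM. Of the cells with 5 to 9 Ckm UMIs 11.3% were marked as doublets, and of those with at least 50, 2.94%.

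**Figure D3:**
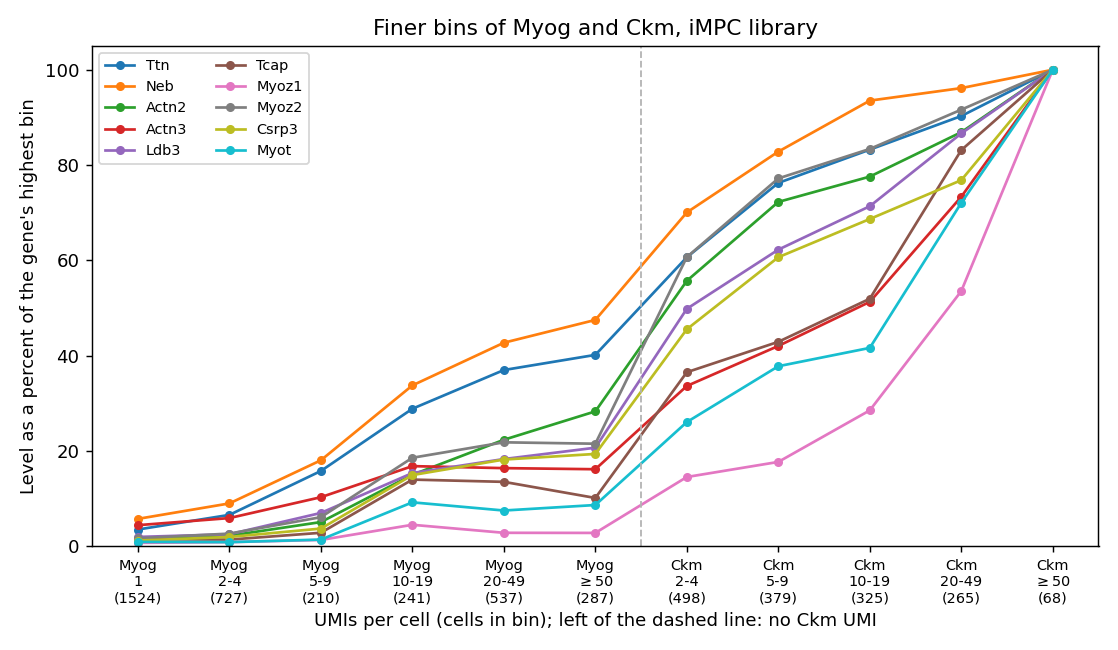
Level of each gene as a percent of its highest bin, in 11 bins of iMPC cells by Myog UMIs (no Ckm UMI, left of the dashed line) and by Ckm UMIs (right), with the number of cells under each bin. Ttn reached 40.1% and Neb 47.5% of the highest bin at 50 or more Myog UMIs and no Ckm UMI, and Myoz1 2.78%; its highest value without Ckm was 4.48%, at 10 to 19 Myog UMIs.

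The share of cells with a UMI was read gene by gene. In cells thinned to 5000 UMIs, a Ttn UMI was present in 25.3% of Myog-negative, 37.5% of Myog-low, 91.7% of Myog-high, 91.8% of Ckm-low and 98.7% of Ckm-high cells. Neb UMIs were present in 23.2%, 29.6%, 79.4%, 88.0% and 96.6% of the same cells. Myot was present in 4.12% of Myog-high, 11.2% of Ckm-low and 21.4% of Ckm-high cells, and Tcap in 7.31%, 18.5% and 34.8%. Myoz1 was present in 6.03%, 17.3% and 38.7% of these groups. Actn2 was present in 35.3%, 66.9% and 84.7% of the 3 groups, Csrp3 in 22.6%, 54.8% and 76.0%, and Myoz2 in 21.3%, 50.4% and 74.8%. Ldb3 was present in 21.2%, 49.2% and 72.3%, and Actn3 in 29.8%, 43.4% and 68.4%. A share depends on the level of a gene as well as on depth, so shares of different genes are not ranked. Without thinning, the shares in Ckm-high cells ran from 59.1% for Myot to 99.6% for Ttn and Actn2. In MEF cells thinned to the same depth, Ldb3 was present in 1.28% and Actn3 in 0.417%, and no other member exceeded 0.139%.

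RNA free in the iMPC suspension gives UMIs in cells that do not express a gene, so a Dcn-rich reference was taken within the iMPC library: 257 cells with at least 5 Dcn UMIs and none of Myod1, Myog or Ckm, with a median of 16868 UMIs. In that reference a Neb UMI was present in 10.1% of thinned cells, Ttn in 6.61%, Myoz2 in 5.06% and Actn3 in 4.28%, and the other 6 in 0.389% to 3.50%. Against it, Ttn was 8.28-fold (log2 interval 2.77 to 3.36), Neb 4.96-fold and Actn3 3.40-fold higher in Myog-low cells, 3 of the 5 members at 10 CPM, where 11.5% of 8227 genes were higher. Actn2 was 1.68-fold and Csrp3 1.51-fold higher. For Ldb3, Tcap, Myoz1, Myoz2 and Myot the intervals of the ratio included equal levels, so any expression of these 5 in Myog-low cells was not detectable above that reference. A free RNA profile taken from barcodes of 200 to 600 UMIs, at their median of 430, would give a Myog-low cell 16.3 CPM of Ttn and 5.77 of Neb. It would give 6.31 CPM of Actn3 and 7.88 of Csrp3. For Myog, which defines the groups, the same profile would give a cell 0.247 UMIs on average. Of the 2251 Myog-low cells, 1524 held 1 Myog UMI. How many Myog-low cells held Myog UMIs from free RNA alone was not tested, so the group may include cells that do not express Myog. In barcodes of 1 to 100 UMIs Ttn stood at 888 CPM against 733 in that profile, and Neb at 257 against 259. Actn3 stood at 132 against 284 and Csrp3 at 148 against 354 CPM. Which set lies nearer to free RNA was not tested.

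**Figure D4:**
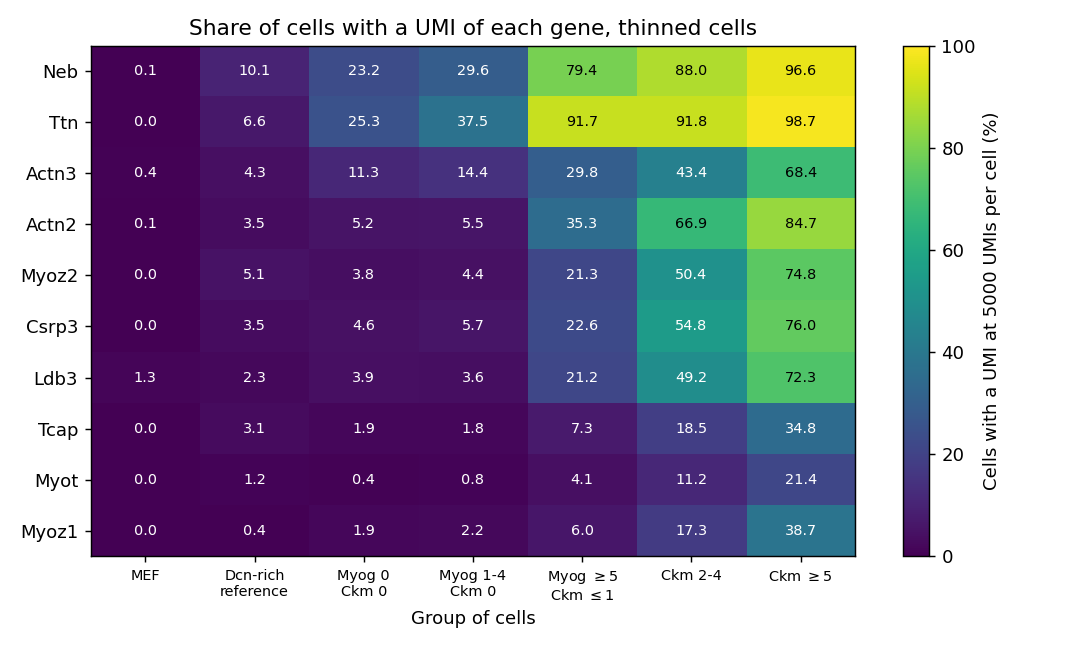
Share of cells (%) with at least 1 UMI of each gene after thinning to 5000 UMIs per cell, for MEF, the Dcn-rich reference and 5 groups of iMPC cells; each square shows its percent. Ttn and Neb UMIs were present in most Myog-high cells (91.7% and 79.4%). At this depth Tcap, Myot and Myoz1 stayed at or under 38.7% in the Ckm-high cells. Without thinning they were in 63.1%, 59.1% and 65.5% of them.

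The number of the 10 genes with a UMI was counted in each thinned cell. The median was 1 in Myog-negative and in Myog-low cells, 3 in Myog-high, 5 in Ckm-low and 7 in Ckm-high cells. At least 5 of the 10 were present in 0.533% of Myog-low, 19.8% (17.9 to 21.7) of Myog-high, 53.0% (48.5 to 57.5) of Ckm-low and 84.5% (82.1 to 86.6) of Ckm-high cells. All 10 were found together in 6.27% of Ckm-high cells. No member was present in 33.6% of Myog-low cells, 2.78% of Myog-high cells and 0.0964% of Ckm-high cells, against 66.1% of the Dcn-rich reference and 98.0% of MEF cells. These shares depend on depth: without thinning, at least 5 were present in 49.1% of Myog-high and 98.9% of Ckm-high cells.

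**Figure D5:**
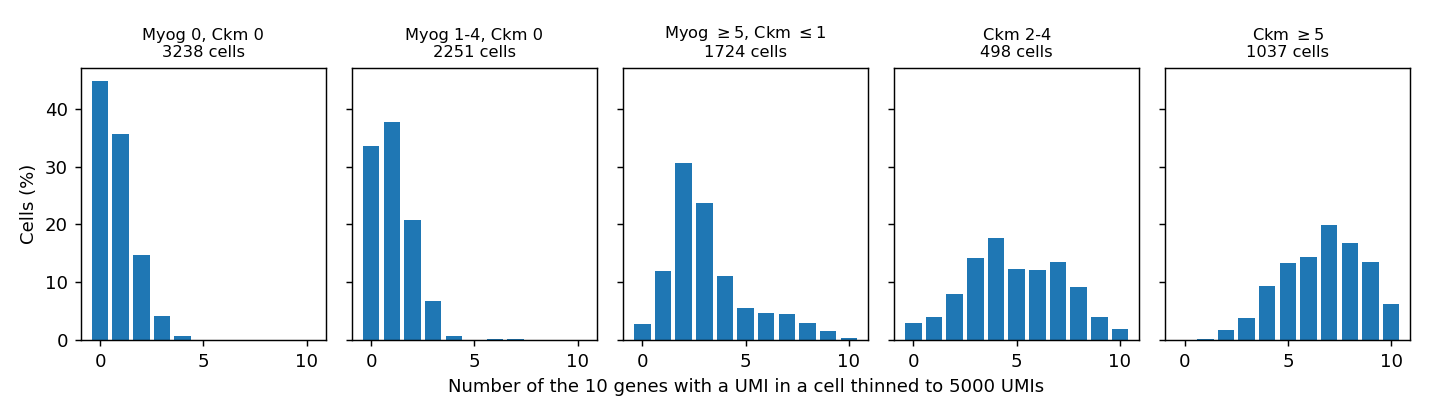
Distribution of the number of the 10 genes with a UMI in a cell thinned to 5000 UMIs (horizontal axis) as a percent of cells (vertical axis), in 5 groups of iMPC cells. The median moved from 1 in Myog-negative and Myog-low cells to 3, 5 and 7 in the Myog-high, Ckm-low and Ckm-high cells.

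Within the Myog-high cells the late genes were mostly counted in cells that also held Ttn. Of 126 thinned cells with a Tcap UMI 125 also had Ttn, of 71 with Myot all 71 did, and of 104 with Myoz1 101 did. For Ldb3 360 of 365 cells also held Ttn, and for Actn2 593 of 609. Ttn was itself present in 91.7% of all Myog-high cells, which is the share to set beside these. In the other direction, 37.5% of the Ttn cells held Actn2, 22.8% Ldb3, 7.91% Tcap and 6.39% Myoz1. Neb without Ttn was seen in 74 cells and Ttn without Neb in 286.

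In Ckm-high cells the genes varied together in different ways. Over the 1037 thinned cells, which share a library and a depth, Spearman's rho was 0.55 for Ttn with Neb, 0.54 for Actn3 with Myoz1 and 0.42 for Myoz2 with Csrp3. Actn3 and Myoz1, both genes of the fast-fibre Z-disc, each had a rho of -0.52 with Myog. With the 4 genes of a fast-fibre list rho was 0.34 (Tnni2) to 0.60 (Tnnc2) for Actn3, 0.24 (Myh1) to 0.55 (Tnnc2) for Myoz1 and 0.13 (Myh4) to 0.46 (Tnnc2) for Myoz2. A list of 5 genes taken for slow fibres also held Myh2, which encodes the fast type IIa myosin heavy chain. With that list rho was -0.14 (Myh7) to 0.32 (Tnnt1) for Actn3 and -0.23 (Myh7) to 0.26 (Tnnt1) for Myoz1. For Myoz2 it was 0.02 (Myh7) to 0.38 (Tnnc1). Myh2 itself had 0.23 with Actn3, 0.19 with Myoz1 and 0.10 with Myoz2. The ranges of the fast and slow lists overlapped for Myoz1 and Myoz2, and for Actn3 only Myh7 of the slow list had a negative value. For Ttn the rho with Myog was -0.19. These values describe the cells of a single library and carry no test.

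UMIs of the late genes were also concentrated in few cells. The Ckm-high cells were 11.1% of the iMPC cells but, being deeper, held 48655216 of the 232728796 UMIs of all genes. They held 77.8% of the Myoz1 UMIs, 71.9% of Myot and 67.1% of Tcap. They held 55.7% of the Ttn and 53.0% of the Neb UMIs, of which Myog-high cells held a further 24.3% and 24.4%. The 93 cells with the most UMIs of a gene, the top 1%, carried 35.8% of all Tcap and 34.0% of all Myoz1 UMIs but 11.2% of the Neb UMIs.

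Genes with the most similar pattern were sought over 8 bins of iMPC cells among 3318 genes, by the root-mean-square difference of mean-centred log2(CPM + 1). Csrp3 was closest to the fast myosin light chain genes Mylpf (0.04) and Myl1 (0.06), and Actn2 to Cox6a2, a subunit of cytochrome c oxidase in striated muscle (0.06), and to Myoz2 (0.07). Myoz2 had Actn2 (0.07) and Srl (0.07) nearest, Ldb3 Adprhl1 (0.07) and Pdlim3 (0.09), Actn3 Smtnl2 (0.07) and Mlip (0.07), and Tcap Nmrk2 (0.09) and the M-band gene Myom2 (0.10). For the early pair the nearest were Tm6sf1 (0.11) and Cap2 (0.13) for Neb, and the kelch genes Klhl40 (0.15) and Klhl31 (0.16) for Ttn. Myot was nearest to Cmya5 (0.16) and Coq8a (0.17). Myoz1 had the most distant neighbours, Myh4 (0.27) and Cmya5 (0.32).

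A list of 56 other genes of the Z-disc, of titin and of sarcomere assembly was followed for comparison, 50 of which reached 10 CPM. Between Myog-low and Ckm-high cells 34 were higher and 5 lower, where 11.7% of all genes compared were higher and 29.8% lower. The median log2 ratio was 3.50 over the 56 and 3.70 over the 50, against -0.46 over all genes compared. A sublist of 10 genes held those of the M-band, where the far end of titin is anchored. It also held the myosin-binding protein C genes Mybpc1 and Mybpc2 and ubiquitin ligase genes. Of these 10 genes, 9 were higher. Mybpc1 went from 7.16 to 332 CPM, Myom1 from 3.11 to 111, Myom2 from 2.56 to 115 and Myom3 from 1.31 to 80.8 CPM. The muscle RING-finger ubiquitin ligase genes Trim54, Trim55 and Trim63 had log2 ratios of 5.19, 3.62 and 5.82, and Obsl1 had the smallest of the 10, 1.92. All 4 partners of the titin spring were higher, from a log2 ratio of 2.28 for Ankrd1, at 179 and 875 CPM, over 5.16 for Ankrd2 to 6.04 for the protease gene Capn3. Both genes of the palladin family were higher, Mypn by 5.71 and Palld by 2.52 on the log2 scale.

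Members of the same protein family differed in direction. Among relatives of nebulin, Nrap went from 3.11 to 166 CPM while Lasp1 went from 27.0 to 3.58 CPM. The non-muscle alpha-actinins Actn1 and Actn4 passed in neither direction, with log2 ratios of -0.75 and -0.67 against 5.52 for Actn2. Both were lower in iMPC than in MEF, as were 21.5% of all genes compared, and in MEF Actn1 stood at 582 against 56.7 CPM and Actn4 at 230 against 102 CPM. Among PDZ and LIM genes related to Ldb3, Pdlim3 (5.03) and Pdlim5 (3.05) were higher on the log2 scale and Pdlim2 (-2.12) lower, while Pdlim1 (0.33), Pdlim4 (0.44) and Pdlim7 (0.94) were not called. Of the LIM genes related to Csrp3, Fhl1 was higher (1.82) and Csrp2 lower (-3.32), from 122 to 12.2 CPM, and Csrp1 (-0.78) and Fhl2 (0.69) were not called. Of the filamins, whose muscle form binds myotilin and the calsarcins, Flnc was higher (1.89) and Flna lower (-3.29), and the Xin-repeat genes Xirp1 (5.51) and Xirp2 (5.58) were higher. Synpo2 (3.91) and Synpo2l (3.77) were higher, and Synpo stayed under 10 CPM.

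Genes that cap thin filaments or fold and turn over sarcomere proteins were higher in 10 of 15 cases. Their log2 ratios were 6.45 for Cmya5, 6.25 for Lmod2, 5.86 for Lmod3, 5.42 for Klhl41, 5.35 for the myosin chaperone gene Unc45b, 4.98 for the chaperone gene Cryab, 4.78 for Klhl40, 3.78 for Smyd1, 3.38 for Hspb1 and 1.97 for the desmin gene Des. The actin-capping genes Capza1, Capza2 and Capzb, with log2 ratios of -0.47, -0.02 and -0.01, were not called. Several of these proteins are shared by heart and skeletal muscle. Of a list of 9 cardiac genes only Tnnt2, which developing skeletal muscle also expresses, reached 10 CPM in the iMPC cells, and in Ckm-high cells Myh6 stood at 2.28 and Nkx2-5 at 0.596 CPM.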

How the data were processed

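The deposited files hold whole-number UMI counts per gene and barcode, raw per the file headers and values. The submitters' processing notes name Cell Ranger 4.0, Seurat 3.2.3 and GRCm38.p6, without saying what each was used for in these files. The iMPC matrix lists 6794880 barcodes and the MEF matrix 6113, so cells had been selected before deposit only in the latter. The 24 genes listed only for MEF, with 0.209% of its UMIs, were dropped. The labels give MEF the treatment text of iMPC, while its own treatment label names MEF media, and the latter was used.

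An iMPC cell was a barcode with at least 8036 UMIs, and cells of either library with over 20% mitochondrial UMIs were removed. No minimum was set for MEF, where 284 cells under 5000 UMIs were left out of thinned shares. Doublets were scored with Scrublet in scanpy 1.11.5 at an expected rate of 6% and kept, with removal as an alternative: its own threshold marked 4.04% in iMPC, and in MEF only 0.0331%, so the top 5% of scores were used there. Cells of a library are not replicates. With 1 library a group no p-value was computed. Intervals are exact Poisson for levels, conditional for ratios and Clopper-Pearson for shares. A gene with 0 UMIs was set to a floor of 3 counts over the library. Thinning drew without replacement with a fixed seed. The counting and ratio steps were tested on simulated data.

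Symbols were matched exactly, and positions come from GENCODE M21. The matrices count whole genes, so exons and isoforms are not told apart. Named genes are the 10 members, Myog and Ckm, genes of the other list with at least 50 CPM and a 2-fold ratio or at the ends of a sublist, the 2 nearest genes of each member, and marker genes. A result that the rule would name is not reported here. The uncalled PDZ and LIM genes, the bounds of the finer bins and the pairs described were chosen after values were seen, and the members and lists were chosen with earlier results of these data known. Alternatives covered the UMI and mitochondrial limits, doublets, scaling, averaging, free RNA, stage limits, thinning and thresholds. Analysis used Python 3.11.15, numpy 2.4.6, scipy 1.17.1, pandas 2.3.3 and matplotlib 3.10.9.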

Additional observations from a re-analysis of the deposited data

Results flagged for a closer look

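The iMPC barcodes of 200 to 600 UMIs, 48846 in number, were not among the kept cells and served only as the free RNA profile. All 10 genes were measured in them far above 0.141 CPM, the level of 3 counts. Their levels were 733 CPM for Ttn, 259 for Neb, 269 for Actn2, 284 for Actn3, 191 for Ldb3 and 354 CPM for Csrp3. Myoz2 stood at 257 CPM, Myoz1 at 124, Tcap at 92.1 and Myot at 33.7 CPM. Relative to the kept iMPC cells, Ttn and Neb were at 0.581 and 0.561 of their level there, and the other 8 at 1.51 (Actn2) to 2.24 (Myoz1) times theirs.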

How the results depend on the processing

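No paired analysis was possible because each group held 1 library, and for the same reason no replicate could be left out. Of the log2 ratios of single members, 4 changed sign, each from Myog-low to Myog-high cells with stages from thinned counts: Actn3 to -0.20, Myot to -0.25, Myoz1 to -0.58 and Tcap to -0.61. No other alternative turned the direction of a member whose interval excluded equal levels. The count of 10 members higher in iMPC than in MEF and that of 34 other Z-disc genes kept within 1.5 times of these values under every alternative run, and 38 to 45 of the 45 pairs of members kept their order. The count from Myog-low to Myog-high cells, 10, was 0 with stages from thinned counts. From Myog-high to Ckm-low, 7 became 1 at 3-fold. From Ckm-low to Ckm-high, 2 became 0 at 3-fold, 1 with at most 10% mitochondrial UMIs and 1 with raised stage limits. The share of cells with at least 5 members moved with depth and detection. In Myog-high cells it was 10.2% when 2 UMIs were asked for, 11.2% at 2000 UMIs, 25.9% at 8000, 49.1% without thinning, 21.8% with raised limits and 32.6% with stages from thinned counts. In Ckm-high cells these values were 58.1%, 56.4%, 93.1%, 98.9%, 90.4% and 89.7%. The cause of these changes was not tested beyond what each setting changes by itself. Removing mitochondrial and ribosomal protein genes from the totals took the log2 ratio of Ldb3 between iMPC and MEF from 4.80 to 4.94, and every other gene by the same amount. Restricting MEF to cells of the iMPC minimum, taking Myog-high cells with no Ckm UMI and computing levels from thinned cells were added after the data were seen. MEF levels of Ttn, Actn2, Tcap, Myoz1, Myoz2, Csrp3 and Myot rest on at most 12 UMIs, which limits the size of their ratios and not their direction.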

Other observations

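A further 191 iMPC barcodes above the same UMI minimum had over 20% mitochondrial UMIs (median 37.8%) and were kept out of all comparisons. Among their non-mitochondrial UMIs Ttn stood at 11195 per 1000000, 3.11 (3.06 to 3.15) times its level in Ckm-high cells on the same scale, and Neb at 2771 per 1000000, 2.21 times. Ldb3 (2.48), Actn2 (1.995), Actn3 (1.95) and Myot (1.39) were also above the Ckm-high level. Myoz1 was at 0.963 (0.866 to 1.07) of it, an interval that includes equal levels, while Tcap was at 0.756, Csrp3 at 0.589 and Myoz2 at 0.353. The longest annotated transcripts of the 4 genes at or below the Ckm-high level are 1289 bases (Myoz1), 948 (Tcap), 2433 (Csrp3) and 2412 (Myoz2), against 106824 for Ttn, 22489 for Neb, 5119 for Ldb3, 3013 for Actn2, 2887 for Actn3 and 2209 for Myot.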
